A study of Mus musculus with 4 samples.

Results

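The genes described here encode the translation initiation and elongation factors, the proteins that load messenger RNA and initiator tRNA onto the ribosome and then carry it along the coding sequence. Members were all probe sets whose platform annotation gives exactly 1 gene symbol and whose symbol begins with Eif or Eef and a digit, begins with Pabp, or is Etf1. Eif2s3y was left out by the rule. This took 75 of 12422 non-control probe sets, for 53 of 8251 genes named by a probe set of their own. The rule used names only and no measured value. It also took genes that are not factors in the strict sense, such as the eIF2 kinases, the eIF4E-binding proteins and Eef1akmt1, a methyltransferase of eEF1A. Expression was measured in 4 samples of mouse hippocampus from total RNA, each on its own Affymetrix MG_U74Av2 array. All 4 samples form 1 group: the series title calls them replicates, and the labels give no strain, sex, age, genotype or treatment and leave unsaid if each is a different animal. The p-values therefore measure only the spread between these samples, which may be technical in part. The samples are called 1 to 4, numbers that are names only.

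Translation starts when eIF4F, made of the cap-binding protein eIF4E, the helicase eIF4A and the scaffold eIF4G, recruits an mRNA to a small ribosomal subunit that carries eIF3, eIF1, eIF1A and the complex of eIF2, GTP and initiator tRNA. eIF2 is recharged by the exchange factor eIF2B, and kinases that phosphorylate its alpha subunit slow initiation across the cell. Elongation rests on eEF1A, which delivers charged tRNA, and on eEF2, which moves the ribosome by a codon. In neurons part of this machinery works in dendrites near synapses, and Eef1a2 replaces Eef1a1 as the main eEF1A of mature neurons and muscle.

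Signals are given in quantile normalized array units, with a precision limited by having 4 arrays. Values under a floor of 27.7 units, the 25th percentile of all signals, were treated as background and given no order. The floor is a chosen percentile and not a measured background. A range that reaches below the floor is given as a minimum. Analysis was limited to the 6210 probe sets whose mean signal exceeded the array-wide median. Signals of different probe sets are not compared with each other, because each has its own probes. Of the tissue markers, 7 of 7 neuronal and 8 of 9 measured hippocampal principal cell markers were above the floor in all 4 samples, as were 64.1% of all probe sets. The summed signal of the neuronal markers lay between 14856 and 18890 units, that of the 3 red blood cell markers between 4525 and 14124 units, and that of the 3 choroid plexus markers between 1104 and 2955 units. The part of these cells in the results was not tested. The ratio of 3' to 5' signal, a measure of how complete the copied RNA is, reached its maximum in sample 4 for Actb (1.84, 1.64, 1.51 and 2.03 in samples 1 to 4), for Gapdh (0.887, 0.864, 0.981 and 1.15) and for pyruvate carboxylase (2.62, 1.81, 3.03 and 3.16).

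Of the 75 member probe sets, 49 were analysed, for 41 genes. The other 26 had too low a mean, and 21 of these lay below the floor in at least 1 sample. They include all probe sets of 12 genes, which are described by their values only. No analysed member had a sample below the floor.

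For the 41 analysed genes the median range was 0.45 log2 units, a 1.37-fold span, against 0.51 log2 units (1.43-fold) for the 4824 analysed named genes, a difference that was not tested. A span under 1.5-fold was found for 32 of 49 member probe sets (65.3%), against 55.8% of all analysed probe sets. The signal spanned 2-fold or more for 3 of 49, against a background of 15.2% of all analysed probe sets. These 3 probe sets read Eif3j1, Eif4b and Eif4ebp2, and for the last 2 another probe set of the same gene spanned less. Without sample 4 only 1 member probe set spanned 2-fold, against 7.36% of all analysed. The variance of each probe set was set against that of probe sets with like signal (limma's F test, one-sided, with p-values adjusted by Benjamini-Hochberg over the 6210 probe sets). This test called 0 of 49 members, and the lowest adjusted p of a member was 0.807. It also called 0 of all 6210 analysed probe sets (background 0.0%), where the lowest adjusted p was 0.356. With 4 arrays the test thus called nothing, and its 0 does not show that the members were steady. At an unadjusted p under 0.05 it took 2 of 49, against a background of 5.62%. They were Eif3j1 (unadjusted p = 0.0335) and 1 probe set of Eif4b (unadjusted p = 0.0470), for which the limma adjusted p ranged over 11 alternatives from 0.203 to 0.958 and from 0.203 to 0.983. In these bulk samples fewer cells of a type and less RNA per cell cannot be told apart.

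**Figure D1:**
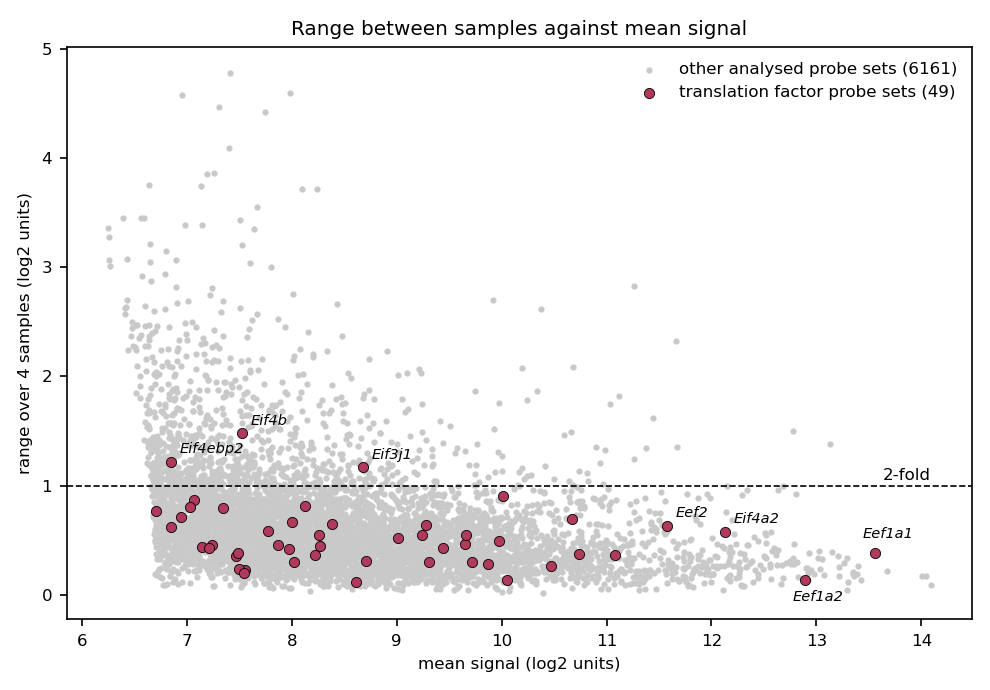
Range over the 4 samples (vertical axis, log2 units) against mean signal (horizontal axis, log2 units) for the 6210 analysed probe sets, with the 49 translation factor probe sets in red and the rest in grey. The 3 red points above the dashed 2-fold line are probe sets of Eif4b, Eif4ebp2 and Eif3j1.

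The family's median deviation was close to 0 in each sample. The deviation of a gene is the log2 difference between a sample and the mean of its 3 companions. Its median over the 41 genes was 0.048, 0.020, 0.0091 and -0.062 in samples 1 to 4, and over all analysed named genes it was 0.0086, 0.0050, 0.012 and 0.017. The number of the 41 genes with a negative deviation was 15 in sample 1 (background 48.7%), 20 in sample 2 (49.2%), 20 in sample 3 (48.4%) and 24 in sample 4 (47.8%). The highest signal was in sample 2 for 15 of 41 genes (background 21.6%), in samples 1 and 3 for 9 each (24.6% and 22.8%) and in sample 4 for 8 (30.9%). The lowest signal was in sample 3 for 15 (background 23.3%), in sample 4 for 14 (30.3%), in sample 1 for 8 (23.1%) and in sample 2 for 4 (23.2%). These shares rest on small differences. Of the 49 probe sets, 37 had the same highest sample and 33 the same lowest sample under quantile normalization, the deposited signals and median scaling.

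**Figure D2:**
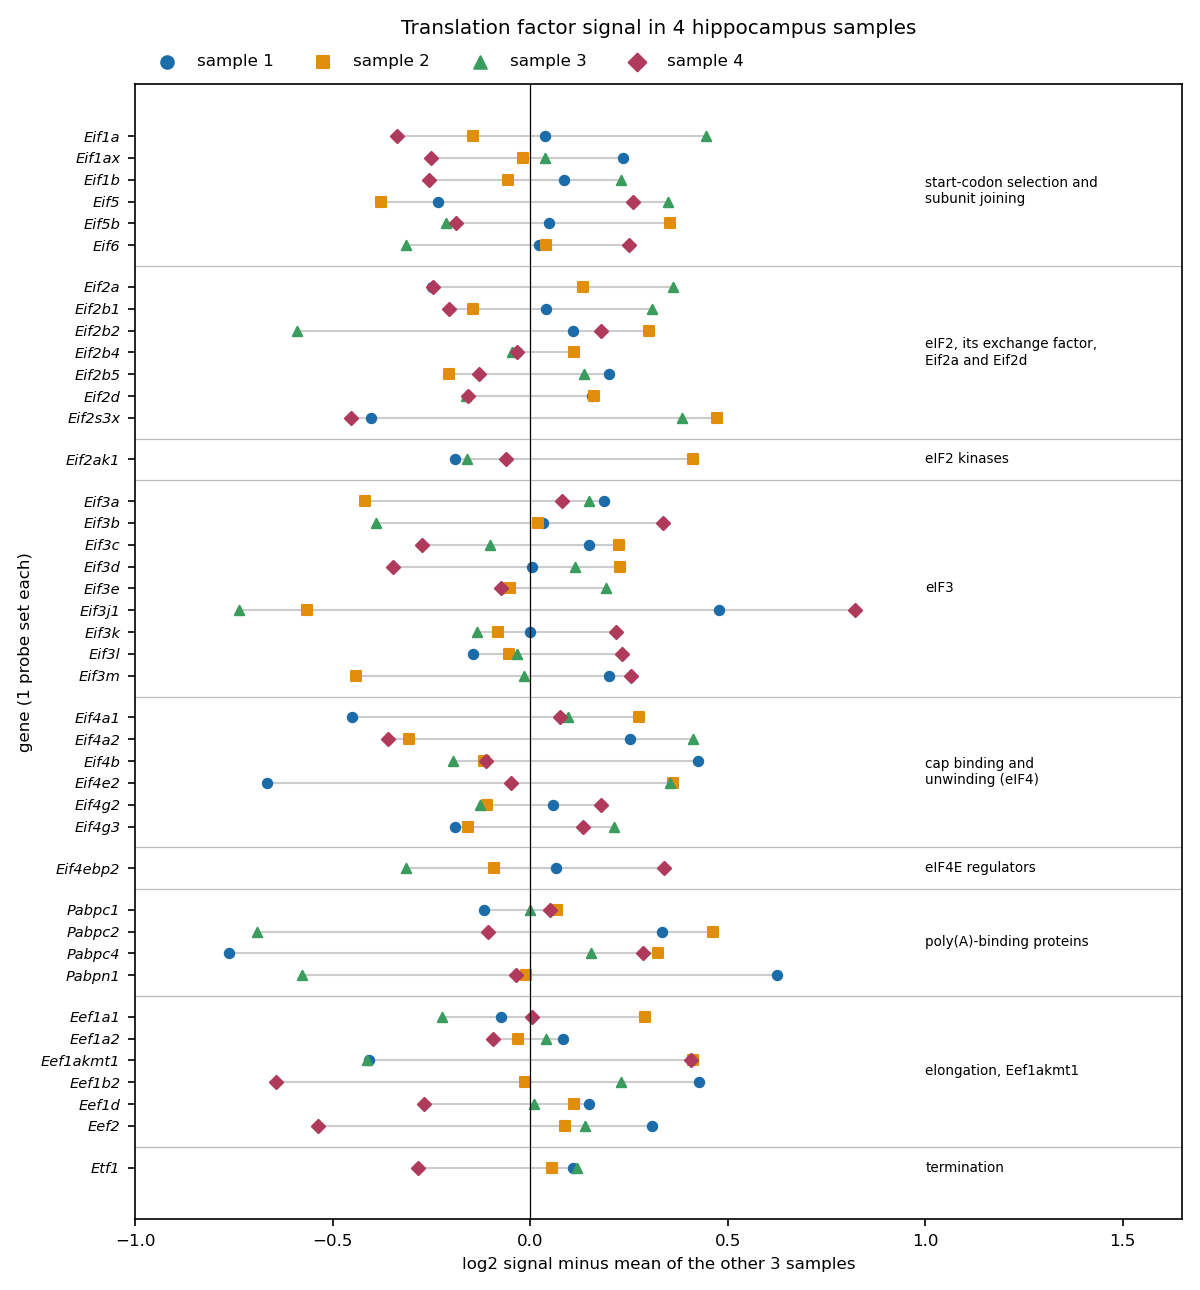
Log2 deviation of each analysed factor from the mean of the 3 companion samples (horizontal axis), for 41 genes grouped by role, with 1 probe set per gene and 1 symbol per sample. Eif3j1 has the widest spread, high in samples 1 and 4 and low in samples 2 and 3, and the mark for sample 4 lies left of 0 for 4 of 5 subunit genes of eIF2 and eIF2B and for Eif2a and Eif2d, which are drawn with them.

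Regulatory sequence that the members might share was read from the RefSeq start windows of mouse assembly GRCm38.p6, each holding 250 bases before and 50 after an annotated gene start. Such windows were found for 42 of the 53 genes. The 11 genes without one include Eef1d, Eef1g, Eif3e and Pabpc1. The mRNAs of many elongation factors and ribosomal proteins are known to begin with a terminal oligopyrimidine tract, through which mTOR signalling controls their translation. A start at C followed by at least 4 further pyrimidines was annotated for 2 of 42 member genes (4.76%), Eif2s3x and Eif3f, against 22.1% of 68 ribosomal protein genes and 3.01% of 27025 genes. A run of at least 7 pyrimidines within 25 bases of the start was present in 15 of 42 (35.7%), against 60.3% and 32.7%. The windows of Eif2s3x and Eif3f, and those of Eef1a1 and Eef2, whose mRNAs are classic carriers of such a tract, are shown as 30 bases of the gene's strand with the pyrimidine run in capitals. In all but Eef2 the run spans the annotated start. The rule of a start at C counted neither Eef1a1 nor Eef2, because it depends on the exact annotated base. The share of 4.76% thus cannot show how many members carry such a tract.
Eif2s3x (chrX:94212634-94212663, minus strand): ccgagcaTTTTCCTTTTCTCTCCgagcaag
Eif3f (chr7:108934403-108934432, plus strand): gttctaggCTCTCTCTCTTTCTCggcaaga
Eef1a1 (chr9:78481710-78481739, minus strand): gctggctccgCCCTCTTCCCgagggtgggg
Eef2 (chr10:81176634-81176663, plus strand): gacgtcagcggTCTCTTCCgccgcagccgc

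A second sequence was searched after the windows had been read, and the rule for the length and place of a pyrimidine run was also set then. The letters CCGGAAGT, searched on either strand, are among the sites that factors of the ETS family bind. They were in the windows of 8 of 42 member genes (19.0%), against 16.2% of the ribosomal protein genes and 4.31% of all 27025 genes. Of the analysed members 7 of 32 had them (21.9%), against 9.88% of 3916 analysed genes of the array. The 8 genes were Eef1b2, Eif2ak1, Eif2b2, Eif2b4, Eif3d, Eif3l, Eif4e2 and Eif5a. Because the letters were chosen after the windows were read, the share of the members may be raised by that choice. The shares therefore cannot show an enrichment. The difference was not tested, and a match describes letters and not binding. In Eef1b2 and Eif2b4 the match begins at the second transcribed base. In Eif2ak1, Eif3d and Eif3l it lies on the opposite strand. In Eif3d, Eif3l and Eif5a it lies before the start, with its first base at -71, -36 and -55. Eif4e2 has several annotated starts, and the first base of its match is at 6, 3 or -23, depending on the start. The windows of Eef1b2, Eif2b4, Eif2b2, Eif4e2 and Eif2ak1 are shown with the match in capitals. They place the same letters near the start of genes from elongation, exchange, cap binding and eIF2 phosphorylation.
Eef1b2 (chr1:63176821-63176850, plus strand): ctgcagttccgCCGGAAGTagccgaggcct
Eif2b4 (chr5:31193120-31193149, minus strand): cccagtgcacgCCGGAAGTtgtagtccgct
Eif2b2 (chr12:85219486-85219515, plus strand): cctctctcggcCCGGAAGTgaaacagtgct
Eif4e2 (chr1:87213905-87213934, plus strand): tcgccagccaaCCGGAAGTagccgggccct
Eif2ak1 (chr5:143817796-143817825, plus strand): gctcttgtgttACTTCCGGcttggggggag

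Of these 8 genes 7 were analysed. Their median deviations were -0.032, 0.23, -0.034 and -0.049 in samples 1 to 4, against 0.084, -0.031, 0.041 and -0.093 for the 25 analysed members whose windows lack the letters. In sample 2 the deviation was positive for 5 of 7 and for 10 of 25, and for 50.8% of all analysed named genes. With median scaling the medians in sample 2 were 0.12 and -0.18, against -0.092 for all analysed named genes. Eif2b2, Eif2b4, Eif4e2 and Eif2ak1 were each highest in sample 2 under quantile normalization, but Eef1b2 was highest in sample 1. Under median scaling Eif2b2 and Eif2b4 were highest in sample 4. The sets of genes rest on letters chosen after the windows were read, and the difference between them was not tested.

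The factors of the small subunit and of subunit joining had a median range of 1.34-fold over 6 genes. Eif1b, a close relative of the start-codon scanning factor eIF1, had a signal of 2270.1, 2108, 2446 and 1899.9 units in the order of the samples (2181 ± 233, SD, n = 4). Sample 3 was highest, and the lowest sample was 4, or 2 with median scaling. Eif5, which activates GTP hydrolysis by eIF2 once the start codon is found, gave 535, 496, 724 and 691 units (612 ± 113, SD, n = 4). Samples 3 and 4 lay above samples 1 and 2 under the 3 scalings, a 1.46-fold range. Eif5b, the GTPase that joins the subunits, gave 152, 178, 132 and 134 units. Its second probe set, too low for analysis, was below the floor in sample 1 and gave 76.2, 104 and 107 units in the others. So the probe sets of Eif5b placed samples 3 and 4 on opposite sides. Eif6, which keeps the large subunit from joining too early, ranged only from 214 to 287 units.

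eIF1A is encoded by Eif1a and the X-linked Eif1ax, each with a pair of analysed probe sets. Eif1a gave 223, 202, 275 and 183 units with one and 147, 163, 139 and 121 units with the other. Eif1ax gave 336, 295, 303 and 261 units with one and 145, 199.6, 203 and 117 units with the other. Sample 4 was lowest in all 4 of these probe sets, while the highest sample differed between the probe sets of each gene. The coding sequences of the genes are closely alike, and how far each probe set reads both was not tested.

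In sample 4, 4 of 5 analysed subunit genes of eIF2 and eIF2B had a negative deviation, as had 47.8% of all analysed named genes, and the median of the 5 was -0.13. With median scaling it was 3 of 5, against 39.0% of all genes, with a median of -0.053. One of the 4, Eif2b4, deviated by only -0.033. The 3' to 5' ratios of the 3 control transcripts were also highest in sample 4, and their part in these values was not tested. Eif2s3x, the X-linked gene of the gamma subunit that holds GTP and the initiator tRNA, gave 1319, 2080.4, 1984 and 1284 units (1667 ± 424, SD, n = 4; unadjusted p = 0.0668, limma). Samples 2 and 3 were above samples 1 and 4 under each of the 3 scalings, a split read from the values themselves. Its Y-linked counterpart Eif2s3y, no member here, gave 232, 6.22, 26.1 and 190.5 units, above the floor in samples 1 and 4 only. Xist, the RNA of the inactive X chromosome, gave 22.2, 307, 659 and 42.0 units. Eif2s3x was thus high in the samples in which Xist was high and Eif2s3y was below the floor. The labels give no sex, none was assigned, and the part of sex in this difference was not tested.

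Eif2s2, the beta subunit, had 2 probe sets with a mean too low for analysis. The first gave 56.2, 78.2 and 102 units in samples 1 to 3 and 18.1 units in sample 4. The second gave 87.5, 43.1 and 71.9 units in samples 1 to 3 and 13.5 units in sample 4. Both were below the floor in sample 4 only, so that their ranges were at least 3.70-fold and at least 3.16-fold. They ordered samples 1 to 3 differently.

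**Figure D3:**
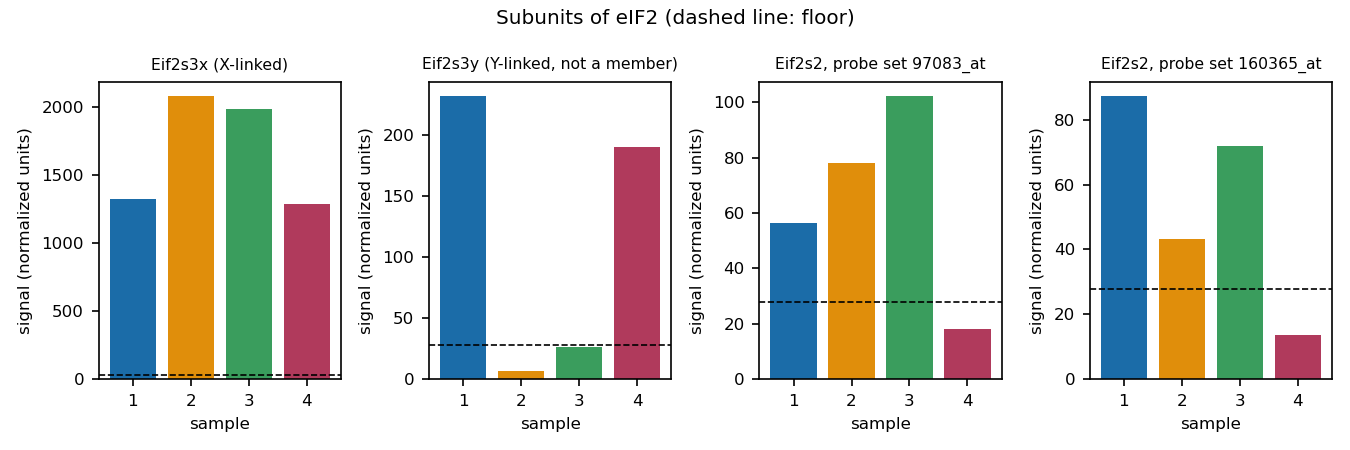
Signal in normalized units (vertical axis) of the eIF2 subunit genes in samples 1 to 4 (bars, 1 array each), with the floor of 27.7 units as a dashed line. Eif2s3x is higher in samples 2 and 3, the samples in which Eif2s3y is below the floor, and both Eif2s2 probe sets are below the floor in sample 4.

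The eIF2B subunits, which recharge eIF2 with GTP, spanned from 1.09-fold to 1.64-fold over 5 analysed probe sets, and Eif2s3x spanned 1.62-fold. Eif2b4, of the delta subunit, gave 384, 414, 381 and 384 units, a 1.09-fold range and the narrowest of all analysed members. Its probe set is of the kind marked as shared between transcripts. Eif2b2, of the beta subunit, gave 272, 301, 189 and 282 units (261 ± 49.4, SD, n = 4), with sample 3 apart below the rest. Eif2b5, of the catalytic epsilon subunit, gave 288, 233, 279 and 243 units with one probe set and 156, 95.5, 136 and 113 units with the other. It was the only 1 of 6 genes with several analysed probe sets in which they shared their highest and their lowest sample. Eif2a, an eIF2-independent carrier of initiator tRNA, gave 133, 162, 183 and 133 units, and Eif2d and Eif2b1 spanned 1.18-fold and 1.31-fold.

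Of the 4 eIF2 kinases, only Eif2ak1 was analysed. It encodes the kinase activated when heme is scarce and gave 279, 382, 284 and 299 units (311 ± 48.0, SD, n = 4), highest in sample 2. The others were above the floor in every sample but too low for analysis. Eif2ak2, the interferon-induced kinase activated by double-stranded RNA, gave 30.8, 42.7, 35.1 and 86.3 units, with sample 4 above the rest and a 2.81-fold range. Eif2ak3, the kinase of the endoplasmic reticulum stress response, gave 44.1, 48.7, 74.4 and 71.2 units. Eif2ak4, which senses uncharged tRNA, gave 93.9, 69.0, 74.0 and 64.6 units. The 4 kinases were highest in 4 different samples.

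Of the eIF3 genes, which encode the scaffold on the small subunit, 6 of 9 analysed had a positive deviation in sample 4, as had 52.2% of all analysed named genes. Their median deviation there was 0.22, and it was 0.26 with the deposited signals and 0.34 with median scaling, which itself put the median of all analysed named genes at 0.11. Without sample 2 the value was 0.12, with 5 of 9 above. A difference from the other classes was not tested. Eif3j1, a loosely held subunit near the decoding site, gave 525, 305, 279 and 628 units (434 ± 169.6, SD, n = 4), a 2.25-fold range. Samples 1 and 4 were high and samples 2 and 3 were low, a split read from the values themselves. Eif2s3y was above the floor in samples 1 and 4 only, and Xist was high in samples 2 and 3. A link between these and Eif3j1 was not tested. The mouse genome holds a near-identical second copy of this gene, and the array cannot assign signal between such copies. Eif3b, of the core, gave 825, 819.9, 663 and 967 units, and Eif3m gave 572, 410.4, 512 and 589 units, with sample 4 highest in both. Eif3k (1414, 1355, 1318 and 1583 units) and Eif3l (870.4, 914, 922 and 1059 units) were also highest in sample 4 but spanned only 1.20-fold and 1.22-fold.

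Eif3c gave 1844, 1917, 1617 and 1479.7 units (1714 ± 202, SD, n = 4), and Eif3d, whose protein can itself bind the cap, gave 696, 781, 737 and 580.1 units. Both were lowest in sample 4 under the 3 scalings. Eif3e gave 180.5, 182, 207 and 180.2 units with its analysed probe set. The other probe set of Eif3e, too low for analysis, gave 100.1, 39.7, 22.4 and 104 units, so that sample 3 was the highest with one and below the floor with the other. Eif3a stayed between 188 and 257 units, and Eif3f, not analysed, between 72.8 and 103 units.

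Among the factors that bind the cap and unwind the mRNA, the helicase genes differed in their order of samples. Eif4a2, the form abundant in brain, gave 5109, 3818, 5544 and 3714 units (4546 ± 919, SD, n = 4; unadjusted p = 0.0735 and adjusted p = 0.911, limma). Samples 1 and 3 were above samples 2 and 4 under each of the 3 scalings. Eif4a1, the more general form, gave 242, 354, 322 and 319 units (309 ± 47.2, SD, n = 4), with sample 1 below the rest. Without sample 1 its range was 0.15 log2 units, against 0.54 with all samples. Eif4e2, an eIF4E relative that binds caps without starting translation, gave 74.0, 126, 126 and 102 units and was also lowest in sample 1. The scaffold genes Eif4g2 (176 to 207 units) and Eif4g3 (573 to 706 units) spanned 1.17-fold and 1.23-fold.

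Eif4b, which stimulates the helicase, was read by 4 probe sets, 2 of them analysed. One gave 1001, 756, 725 and 758 units, high in sample 1. The other gave 165, 266, 270.5 and 97.1 units, a 2.79-fold range with sample 4 lowest. The remaining pair were below the floor in 4 and in 2 samples. The order of samples for Eif4b therefore depends on the probe set. The one with the 2.79-fold range has a name with the suffix r. The only analysed probe sets of Eif4a1 and Eef1b2 have this suffix too. Of the 49 analysed member probe sets, 6 have a letter suffix. How far such probe sets read other transcripts was not tested. Eif4e itself, the cap-binding protein, was not analysed: one probe set was below the floor in all samples, and the other gave 15.2, 51.0, 37.9 and 70.7 units, below it in sample 1. Eif4h was below the floor in all samples, at 10.3 to 23.9 units.

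The genes of eIF4E-binding proteins, which hold eIF4E away from eIF4G until mTOR phosphorylates them, were read by 4 probe sets, 3 of them for Eif4ebp2, the main form in brain. Its probe sets did not share an order. The first gave 1039, 958, 853 and 1197 units (1012 ± 145, SD, n = 4), highest in sample 4. The second gave 142, 187, 80.2 and 83.2 units, a 2.33-fold range with samples 3 and 4 low under the 3 scalings. The remaining one was above the floor in sample 1 only, at 58.7 units. Eif4ebp1, not analysed, gave 54.2 and 76.9 units in samples 2 and 4, 27.8 units in sample 1 and a value below the floor in sample 3. Eif4enif1, which carries eIF4E into the nucleus, was below the floor in sample 2 and between 28.1 and 42.8 units elsewhere.

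The poly(A)-binding proteins had a median range of 0.84 log2 units (1.79-fold) over 4 genes, against 0.51 for all analysed named genes, but Pabpc1 spanned only 1.10-fold. This main cytoplasmic form, which links the tail to eIF4G, gave 997, 1098, 1059 and 1087 units (1060.5 ± 45.5, SD, n = 4). Pabpn1, which binds the tail in the nucleus, gave 1433, 1029, 766 and 1017 units (1061 ± 276, SD, n = 4; unadjusted p = 0.0937 and adjusted p = 0.937, limma). Sample 1 was highest and sample 3 lowest under the 3 scalings, a 1.87-fold range. Pabpc4 gave 187, 329.8, 302 and 323 units, with sample 1 below the rest, and its range was 0.13 log2 units without sample 1 against 0.82 with it. A second probe set of Pabpc4 was below the floor in all samples. Pabpc2, a testis-enriched relative without introns, gave 159.7, 171, 93.7 and 127 units, lowest in sample 3.

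Of the 5 analysed elongation factor genes, 4 were lowest in sample 4, where 30.3% of all analysed named genes were lowest. Of these 4, Eef1a2 was lowest in sample 2 with median scaling. The median deviation of the 5 in sample 4 was -0.27, and it was -0.26 with the deposited signals and -0.18 with median scaling. Eef1akmt1, no elongation factor itself, was left out here and had a deviation of 0.41 in sample 4. With it the median over 6 genes was -0.18 after quantile normalization. Eef2, the translocase, gave 3581, 3191, 3278 and 2306 units (3089 ± 548, SD, n = 4; unadjusted p = 0.116 and adjusted p = 0.947, limma). Samples 1 to 3 lay close together, and without sample 4 the range was 0.16 log2 units against 0.64 with it. Eef1b2, of the exchange factor that recharges eEF1A, gave 163, 129.8, 147 and 93.5 units, also lowest in sample 4. Its range was 0.32 log2 units without that sample against 0.80 with it. The second probe set of Eef1b2, too low for analysis, gave 42.2, 39.8 and 30.9 units in samples 1, 3 and 4. It was below the floor in sample 2, so that the lowest sample differed between the probe sets. Eef1d, another subunit of that exchange factor, gave 450.5, 442, 419 and 363 units. Sample 4 had the highest 3' to 5' ratios, and their part in these values was not tested.

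Eef1a2 gave 7924, 7465, 7748 and 7228 units (7591 ± 308, SD, n = 4), a 1.10-fold range. Eef1a1 gave 11606, 14039, 10736 and 12099 units (12120.2 ± 1398, SD, n = 4), highest in sample 2 and lowest in sample 3. The order was another before normalization. The deposited signals were 11890, 11762, 11708 and 11039 units, a 1.08-fold range with sample 1 highest and sample 4 lowest. Which of the eEF1A genes varied less thus depended on the scaling. Eef1a2 spanned 0.13 log2 units and Eef1a1 0.39 after quantile normalization, but 0.20 and 0.11 with the deposited signals and 0.25 and 0.099 with median scaling. Eef1akmt1 gave 93.5, 143, 93.3 and 143 units, with samples 2 and 4 high and samples 1 and 3 low. Eef1g was below the floor in all samples, at 1.75 to 6.10 units. Eef2k, the kinase that inhibits eEF2, gave 125 units in sample 2, 49.2 units in sample 1 and values below the floor in samples 3 and 4, a range of at least 4.52-fold in a gene too low for analysis. Eif5a, which helps the ribosome past difficult peptide bonds, was below the floor in samples 2 and 4, with 48.0 units in sample 1 and 46.9 units in sample 3.

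Etf1, the release factor that reads all stop codons, was read by 5 probe sets, 4 of them analysed. They gave 890.3, 865, 895 and 726 units, 498, 701, 547 and 775 units, 289, 358, 277 and 434 units, and 206, 161, 172 and 175 units. The probe sets with means of 630.0 and 339 units both had samples 2 and 4 above samples 1 and 3. The brightest had sample 4 lowest, and the dimmest of the 4 had sample 1 highest. The one not analysed gave 96.0, 44.0 and 31.7 units in samples 2 to 4, with sample 1 slightly above sample 2. Of 6 genes with several analysed probe sets, 1 had the same highest and 4 the same lowest sample in all of them. For such genes the order of samples rests on the probe set chosen.

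**Figure D4:**
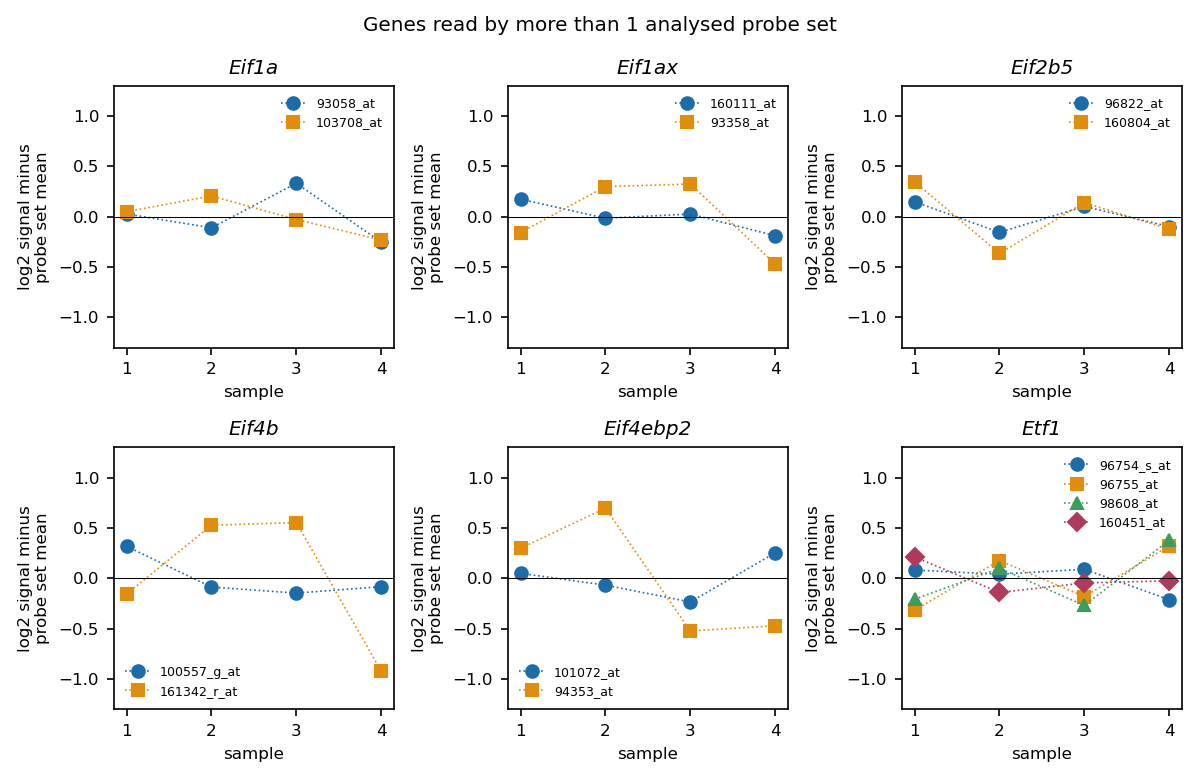
Log2 signal minus the mean of the probe set (vertical axis) in samples 1 to 4 for the 6 genes with more than 1 analysed probe set, with dotted lines only joining the points of a probe set. The pair for Eif2b5 shares its highest and lowest sample, while those of Eif4b and Eif4ebp2 and the 4 of Etf1 differ.

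Other genes of translation were measured on the same arrays, in lists that also hold genes of mitochondrial translation. They include Tufm, Tsfm, Gfm1 and Mtif2 among the control genes and Fars2, Iars2, Rars2, Sars2 and Tars2 among the synthetases. Among translation control and termination genes, a list written from general knowledge, 30 genes were analysed, with a median range of 0.59 log2 units and 0 of 37 probe sets past the variance test (limma, background 0.0%), and 3 of 37 at an unadjusted p under 0.05, against 5.62% of all analysed. Atf4, the transcription factor whose translation increases when eIF2 is phosphorylated, gave 928, 1381, 865 and 1271 units, with samples 2 and 4 above samples 1 and 3. Cyfip2, a partner of the fragile X protein, gave 1225, 1150.5, 2211 and 2231 units, with samples 3 and 4 above samples 1 and 2. Tsc2, an inhibitor of mTOR signalling, gave 780.0, 763, 765 and 1457 units, high in sample 4. Mtor (561 to 691 units) and Larp1 (845 to 919 units), which binds oligopyrimidine tracts, varied less. Of 26 aminoacyl-tRNA synthetase probe sets 0 passed, with 1 of 26 at an unadjusted p under 0.05 against the same 5.62%, and the median range was 0.50 log2 units over 23 genes. Cytosolic ribosomal protein genes spanned a median of 0.31 log2 units over 23 analysed genes. Their median deviations were -0.012, 0.0046, -0.0028 and 0.053 in samples 1 to 4, and the difference from the factors was not tested.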

How the data were processed

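The deposited signals were used as intensities, linear and 1 per probe set and array, and the software that made them is not given in the sources used here. With 66 control probe sets left out, limma 3.58.1 (R 4.3.3) applied quantile normalization between arrays. Signals under the 25th percentile, 27.7 units, were raised to that floor before log2. Each gene was represented by its analysed probe set with the highest mean, and symbols were updated through RefSeq's GRCm38.p6 table, which held all 75. The variance test compared each residual variance (3 degrees of freedom) with a robust trend over signal (5.06 prior degrees of freedom). Its threshold was an adjusted p of 0.05. The test was also run on simulated data, but no outcome is given here. How often it would find ranges like those of the members is therefore not stated. Any member gene could be named. Full values were due for the 3 analysed genes with the largest range and the 2 with the highest mean in each role, and for genes whose probe sets disagreed on the highest sample. Other values given in full, among them those of Eif2s2, Eef2k, the low kinases and genes that are no members, were chosen after they were seen. The members and lists were chosen with earlier results of these data known. Alternatives changed the scaling, floor, pseudocount, filter, probe set choice and variance trend, or left out a sample.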

Additional observations from a re-analysis of the deposited data

Results flagged for a closer look

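In 5 of 49 analysed member probe sets (10.2%) 1 sample stood far from the other 3 relative to the range, against 6.05% of all analysed probe sets. Chance alone gives about 1 in 20 such gaps. Eif4b, in the probe set that was high in sample 1, gave 1001 units there, 1.32-fold above the next sample. Eif2b4 gave 413.6 units in sample 2, 1.08-fold above the next, and Eif3e gave 206.9 units in sample 3, 1.14-fold above the next. Pabpc4 gave 187.4 units in sample 1, 1.61-fold below the next. Etf1, in the probe set shared between transcripts, gave 726 units in sample 4, 1.19-fold below the next.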

How the results depend on the processing

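The count of members past the variance test was 0 under all 11 alternatives run, as was the count over all analysed probe sets. The count of member probe sets with a range of at least 2-fold was 3. It was 14 of 75 with no signal filter (22.6% of all probe sets), and lay between 1 and 3 with a sample left out, lowest without sample 4. The median range of 0.45 log2 units became 0.49 with no filter and 0.32 to 0.39 with a sample left out. Median scaling gave median deviations of -0.080 in sample 2 and -0.0034 in sample 4, and shifted the median of all analysed named genes to -0.092 and 0.11 in these samples. In sample 2 the value was 0.088 with the median over probe sets and 0.018 to 0.058 with a sample left out. In sample 3 it was -0.045 to 0.018 with a sample left out. The causes were not tested. The other 54 recomputed summary values stayed within the spread between samples or within 1.5 times the count. Among single genes, 29 of 270 recomputed ranges moved by more than the SD of the gene. No paired analysis was possible because all samples form 1 group. Low signals limit 26 of the 75 probe sets.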
